A study of Mus musculus with 22 samples.

Results

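Interleukin-1 cytokines and the proteins that receive or block them were followed in the liver of mice given the anti-inflammatory drug diclofenac. The 8 genes were Il1a, Il1b, Il18 and Il33, which code for cytokines, Il1rn and Il18bp, which code for inhibitors, and Il1r1 and Il1rap, which code for receptor chains. They were chosen by name, as all probe sets (groups of short probes for 1 transcript) annotated with 1 of these symbols alone, which gave 15 of the 45101 probe sets of the array and 8 of the 18194 genes with a probe set of their own. Male C57BL6 mice aged 8 weeks received diclofenac sodium at 30 mg/kg by intraperitoneal injection every day, or saline in matching amounts, and livers were taken on day 1, 3 or 14. RNA of whole frozen liver was hybridised to Affymetrix mouse whole genome arrays. There were 3 saline and 3 diclofenac livers on day 1, 3 and 3 on day 3, and 5 and 5 on day 14, 22 arrays in all. The labels speak of 5 mice per group. The labels number the livers without naming the mice, so each array was taken as 1 mouse, and p-values measure only the spread between these arrays.

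Interleukin-1α and interleukin-1β bind the receptor chain IL1R1, which then recruits the accessory chain IL1RAP and signals through the adaptor MyD88 to NF-κB. The receptor antagonist encoded by Il1rn occupies IL1R1 without recruiting the accessory chain, and the binding protein encoded by Il18bp holds interleukin-18 in solution. Interleukin-1β and interleukin-18 are cut to their active form by caspase-1 in inflammasomes, whereas interleukin-33 is a nuclear protein that is released from damaged cells, and hepatocytes answer interleukin-1 with acute phase proteins.

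Il1r1, the signalling receptor, was the member with the clearest difference. Its signal was 2.67-fold higher with diclofenac as the mean of the 3 days, a log2 difference of 1.42 (SE 0.26, adjusted p = 0.00728, limma with Benjamini-Hochberg adjustment over 13340 genes), and it was the 1 member of 8 past an adjusted p of 0.05, where 1.68% of all genes were. Il33, Il18bp and Il1rn had positive differences on all 3 days, of 1.10, 0.89 and 1.19 as the mean on the log2 scale, and Il1rap a negative one, of -0.35, and none of these passed. Il1a, Il1b and Il18 had mean differences of 0.26, 0.39 and -0.04. A single liver, replicate 3 of the diclofenac group on day 14, held the highest Il1a, Il1b, Il1rn, Il1r1 and Il33 of all 22 livers. Without it the count of members called for the 3 days was 3, Il1r1, Il33 and Il18bp, and the share of all genes called rose as well, to 4.04%.

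Several facts of the arrays bear on these values. Signals are MAS 5.0 values with no unit, whose level depends on the probes, so levels are compared between livers for 1 probe set and never between probe sets. Array medians were 75.2 to 89.9, and the number of arrays limits the precision. Replicate 3 of the diclofenac group on day 14 stood apart. Its median correlation with its group was 0.877 over all probe sets, against 0.911 to 0.914 in the other 4. Differences between days cannot be told apart from the handling of the arrays, because all arrays of a day share that day. Each diclofenac group was therefore compared with saline of the same day. RNA integrity as read by the 3′ to 5′ ratio of the control transcripts Gapdh and Actb (log2, mean of both) was 0.74 ± 0.05 with diclofenac and 0.62 ± 0.06 with saline on day 14 (SD, n = 5 each), and its part in the results of day 14 was not tested. The hepatocyte markers Alb, Ttr, Apoa1, Cps1 and Tat were above the array median in all 22 livers.

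Of the 15 probe sets, 6 lay above the median signal of their array in all 22 livers, 7 in some and 2 in none. The 2 in none were 1459777_at of Il1r1 and 1442614_at of Il1rap. Where a gene had several probe sets, the one with the highest mean log2 signal stood for it. Those of Il1b (1449399_a_at), Il1r1 (1448950_at), Il1rap (1449585_at) and Il18 (1417932_at) were above the median in all 22 livers, those of Il1rn (1451798_at) and Il18bp (1450424_a_at) in 21, that of Il1a (1421473_at) in 18 and that of Il33 (1416200_at) in 15. For Il33 these were 10 of 11 diclofenac livers and 5 of 11 saline livers. A gene was tested when it was above the median in at least 3 arrays of a model, and all 8 members passed in every model.

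**Figure D1:**
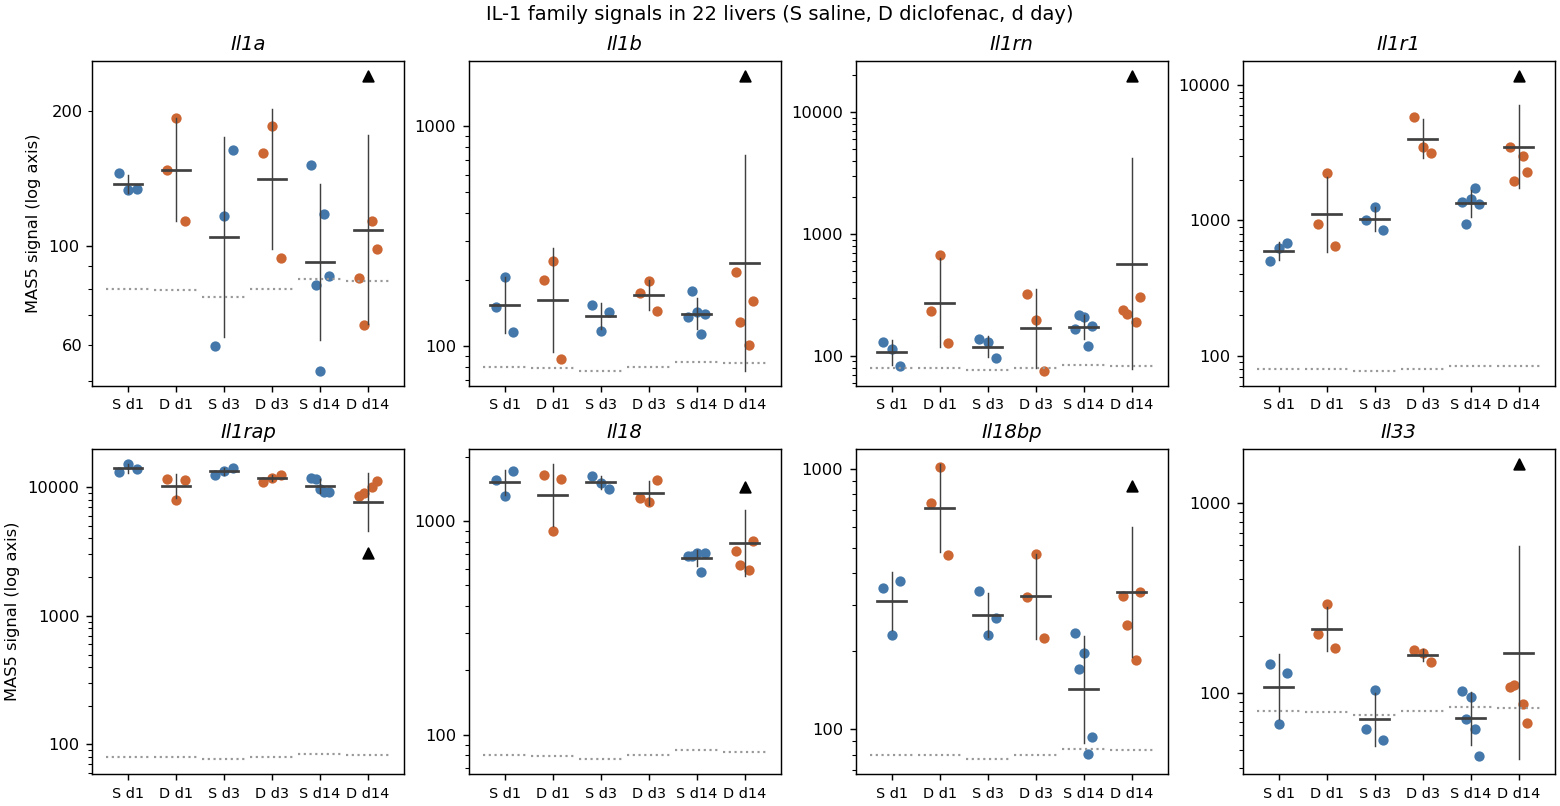
MAS 5.0 signal (log axis, no unit) of the 8 members in 22 livers, by treatment (S saline in blue, D diclofenac in orange) and day. Horizontal bars are geometric means, vertical lines 1 SD on the log2 scale, dotted lines the mean array median of the group, and black triangles replicate 3 of the diclofenac group on day 14, which was far above the other 4 livers for Il1b, Il1rn and Il33 and below them for Il1rap.

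Day by day, no member passed the test. On day 1, 0 of the 8 members and 0% of 12884 genes had an adjusted p under 0.05 (limma), with 5 members and 1674 genes under 0.05 before adjustment. On day 3 it was 0 of 8 members beside 0.202% of all genes, with 2 members and 1397 genes under 0.05 before adjustment. On day 14 it was 0 of 8 members beside 0% of 11884 genes, with 2 members and 1287 genes under 0.05 before adjustment. For the mean effect of days 1 and 3, 1 of 8 members was called, Il1r1, beside 0.675% of all genes. The methods' t-test called 0 members on each day after Benjamini-Hochberg adjustment. At the study's p threshold with a change of at least 1.5-fold it called 1 member on day 1, 2 on day 3 and 2 on day 14, beside 1.46%, 2.49% and 2.39% of all genes. At an unadjusted p under 0.01 and the same fold, limma called 1, 2 and 1 members, beside 1.92%, 2% and 1.73% of all genes.

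Single livers were also compared by their ranges. On day 1, 2 members, Il18bp and Il33, had all diclofenac livers above all saline livers, beside 8.23% of all genes, and 1, Il1rap, had all below, beside 8.1%. On day 3 there were again 2 above, Il1r1 and Il33, beside 10.8% of all genes, and 1 below, Il1rap, beside 9.21%. On day 14 only Il1r1 was above without overlap, where 2.18% of all genes were, and 0 members were below, where 1.6% were. With 3 livers against 3 the smallest p an exact permutation test can give is 0.1, so that no single member could pass on day 1 or 3 by that test.

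Of the cytokine genes, Il1a, which codes for the cell-bound form of interleukin-1, was above the array median in 18 of 22 livers. Its signals on day 1 were 145, 134 and 134 with saline and 148, 194 and 114 with diclofenac. On day 3 they were 59.7, 117 and 164 against 161, 185 and 93.7, and on day 14 they were 151, 81.7, 52.5, 118 and 85.6 against 84.6, 66.5, 240, 114 and 98.4. The groups overlapped on every day, and the differences of 0.11, 0.43 and 0.24 on the log2 scale were each under 1.5 times their standard errors of 0.38, 0.38 and 0.38. Without replicate 3 on day 14 the difference of that day was -0.04.

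Il1b, the main secreted form, had signals of 151, 206 and 116 in saline livers and 199, 244 and 87.3 in diclofenac livers on day 1. On day 3 they were 154, 117 and 143 against 174, 198 and 144. On day 14 they were 136, 178, 143, 113 and 139 against 217, 129, 1688, 101 and 160. Groups overlapped on each day, and 1 liver, replicate 3 of day 14, was 11.6 times the geometric mean of the other 4 of its group. The log2 differences were 0.08, 0.32 and 0.76 (SE 0.35, 0.35 and 0.63), and that of day 14 was 0.06 without this liver. Over the 3 days the exact permutation test within days gave p = 0.216 (two-sided, 100800 splits).

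Il18, the other cytokine cut by caspase-1, had levels that differed between the days. Signals were 1561, 1312 and 1717 with saline against 1643, 902 and 1574 with diclofenac on day 1. They were 1630, 1516 and 1416 against 1287, 1226 and 1561 on day 3. On day 14 they were 687, 686, 707, 578 and 708 against 728, 623, 1440, 590 and 810. Saline livers of day 14 spanned 578 to 708 and those of days 1 and 3 spanned 1312 to 1717, ranges that did not meet, with geometric means 2.26-fold apart. The differences between treatments were -0.20, -0.17 and 0.24 (SE 0.20, 0.20 and 0.21) and changed sign between days, and that of day 14 was 0.02 without replicate 3. In the same saline livers the 8 Kupffer cell markers summed to signals of 4936 to 12443 on day 14 and 17785 to 28631 on days 1 and 3. The sums of monocyte (1013 to 2076 against 2792 to 4675), sinusoidal endothelial (6155 to 8634 against 9367 to 11630.5) and T and NK cell markers (268 to 284 against 410 to 552) were also lower on day 14 without overlap, and that of hepatocyte markers was higher (327570 to 449708 against 216992 to 246033). In whole liver, fewer cells of a type and less RNA per cell cannot be told apart, and the part of the markers in the Il18 levels was not tested.

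Il33, the nuclear cytokine, was higher with diclofenac on days 1 and 3 without overlap. Of the saline livers, 2 of 3 were above the array median on day 1 and 1 of 3 on day 3. On day 14 these were 2 of 5 saline and 4 of 5 diclofenac livers. On day 1 the signals were 142, 68.9 and 128 in saline livers and 204, 293 and 173 in diclofenac livers. On day 3 they were 64.4, 104 and 56.7 against 168, 162 and 146. All diclofenac livers lay above all saline livers on both days, and the log2 differences were 1.01 (SE 0.34, adjusted p = 0.306) and 1.13 (SE 0.34, adjusted p = 0.239, limma). With other choices of processing they ranged from 0.65 to 1.02 on day 1 and from 0.67 to 1.15 on day 3. On day 14 the signals were 102, 72.4, 95.3, 64.8 and 46.3 against 107, 110, 1611, 87.4 and 69.6. Replicate 3 was 17.5 times the geometric mean of the other 4, which overlapped saline, and the difference of 1.15 (SE 0.74) was 0.33 without it. For days 1 and 3 together the difference was 1.07 (SE 0.24, adjusted p = 0.0574, limma), and it passed without diclofenac replicate 3 of day 1 (1.15, adjusted p = 0.0411). That was 1 of 12 fits with 1 array left out, and all genes called rose there from 87 to 326.

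For the 3 days together the mean difference of Il33 was 1.10 (SE 0.40, adjusted p = 0.162), and without replicate 3 of day 14 it was 0.82 (adjusted p = 0.0166, limma), past the threshold although smaller. In that fit 4.04% of all genes were called, against 1.68% with all arrays. Leaving out each other array in turn called Il33 in 0 further cases. The exact permutation test within days gave p = 0.000377 with all livers and 0.000873 without that liver, 1 of 8 such tests and not adjusted for their number.

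**Figure D2:**
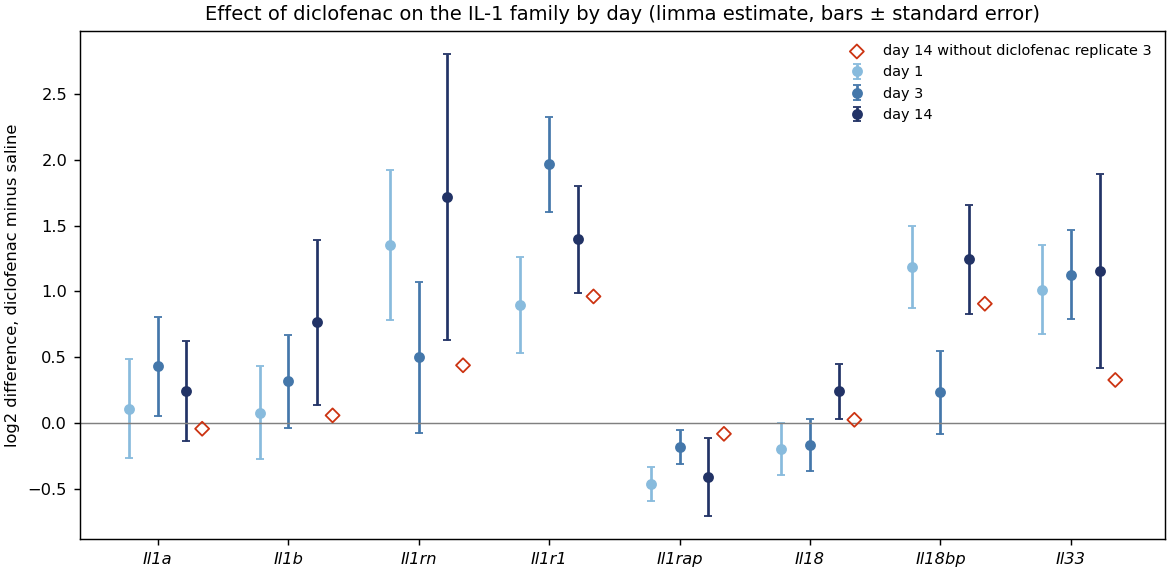
Log2 difference of diclofenac minus saline for each member on day 1, 3 and 14 (limma estimates, bars ± SE), with open red diamonds for day 14 without replicate 3 of the diclofenac group. Il1r1 had values of 0.89, 1.97 and 1.40, and leaving out the liver moved Il1rn from 1.72 to 0.44 and Il33 from 1.15 to 0.33.

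Of the inhibitors, Il1rn, the receptor antagonist, was set on day 14 by 1 liver. Its signals were 131, 114 and 82.0 with saline and 234, 675 and 128 with diclofenac on day 1. They were 137, 130 and 95.2 against 324, 197 and 75.0 on day 3. On day 14 they were 166, 215, 208, 121 and 175 against 236, 222, 19829, 191 and 307. Replicate 3 was 84.3 times the geometric mean of the other 4 diclofenac livers, and its other Il1rn probe sets, 1423017_a_at and 1425663_at, read 9026 and 10817 there. The other 4 livers spanned 191 to 307, and 3 of them lay above all saline livers.

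The log2 differences of Il1rn were 1.35 (SE 0.57), 0.50 (SE 0.57) and 1.72 (SE 1.08), with adjusted p of 0.351, 0.805 and 0.583 by limma. On day 3 its 3 probe sets differed in sign, with -0.42, 0.91 and 0.50. On day 14 the exact permutation test gave p = 0.0317 over 252 splits and 0.0635 without replicate 3, where the difference was 0.44. For the 3 days the mean was 1.19 (adjusted p = 0.306), or 0.76 (adjusted p = 0.103, limma) without that liver.

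Il18bp, the soluble trap of interleukin-18, had signals of 351, 231 and 373 with saline and 745, 1021 and 469 with diclofenac on day 1. All 3 diclofenac livers were above all saline livers, with a log2 difference of 1.19 (SE 0.32, adjusted p = 0.251, limma). On day 3 the signals were 340, 231 and 268 against 322, 473 and 224, and the groups overlapped, with a difference of 0.23 (SE 0.32). On day 14 they were 234, 171, 197, 80.1 and 93.3 against 325, 251, 861, 185 and 338. There 4 of 5 diclofenac livers lay above all saline livers. The difference was 1.24 (SE 0.42, adjusted p = 0.326, limma), and 0.91 without replicate 3.

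For the 3 days the mean difference of Il18bp was 0.89 (SE 0.25, adjusted p = 0.0731), and 0.78 (adjusted p = 0.0379, limma) without replicate 3 of day 14. Leaving out replicate 4 of the same group also brought it under the threshold, with 0.96 and an adjusted p of 0.0425 by limma. All genes called numbered 536 without replicate 3 and 301 without replicate 4, against 224 with all arrays. The exact permutation test within days gave p = 0.00183, or 0.00365 without replicate 3. The effect of day 3 minus that of day 1 was -0.95 (SE 0.45, adjusted p = 0.881, limma).

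Il1r1, the signalling chain and the 1 member called, lies on chromosome 1 from 40222480 to 40316201 in GRCm38.p6. The RefSeq windows used here hold a pair of start sites for the gene, called first and second below. Both lie inside that span, and a start at 40222480 was not among them. The 250 bases before each of the pair are printed because the data turn on this gene. They lie at chr1:40224830-40225079 and chr1:40266336-40266585 on the plus strand. Capitals mark the 1 match to the NF-κB (κB) consensus, on the minus strand at chr1:40266354-40266363, which begins 232 bases upstream of the second start.
Il1r1 first start: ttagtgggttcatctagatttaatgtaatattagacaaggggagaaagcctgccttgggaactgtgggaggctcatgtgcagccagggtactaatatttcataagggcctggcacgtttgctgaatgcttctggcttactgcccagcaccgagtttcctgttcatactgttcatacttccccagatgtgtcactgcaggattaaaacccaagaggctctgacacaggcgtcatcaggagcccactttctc
Il1r1 second start: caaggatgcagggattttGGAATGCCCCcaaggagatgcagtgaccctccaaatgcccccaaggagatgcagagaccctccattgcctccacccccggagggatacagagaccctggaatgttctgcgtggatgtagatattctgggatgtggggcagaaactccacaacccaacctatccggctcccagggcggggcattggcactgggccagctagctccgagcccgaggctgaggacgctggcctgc
Windows of 300 bases (250 before and 50 after a start) were searched on both strands, and 8.46% of the 32851 RefSeq windows held the κB consensus. Among the 12 windows of the 8 members 1 did, the second of Il1r1. TATAAA on the strand of the gene, which was in 8.32% of all windows, was in 4 of the 12, those of Il1a and Il1b and both of Il33. A match is a description of the letters and not a site in use, and which start the livers used was not measured.

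Signals of Il1r1 on day 1 were 504, 625 and 679 in saline livers and 936, 2252 and 652 in diclofenac livers. On day 3 they were 1014, 1268 and 850 against 5869, 3505 and 3162. On day 14 they were 1367, 941, 1434, 1749 and 1329 against 3504, 1945, 11751, 2980 and 2270. The groups overlapped on day 1, where 2 of 3 diclofenac livers were above all saline livers, and were apart on days 3 and 14. The lowest diclofenac liver of day 3 was at 3162 and the highest saline liver at 1268.

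The log2 differences of Il1r1 were 0.89 (SE 0.36, adjusted p = 0.343), 1.97 (SE 0.36, adjusted p = 0.0583) and 1.40 (SE 0.41, adjusted p = 0.255, limma), or 1.86-fold, 3.91-fold and 2.63-fold. On day 14 the exact permutation test gave p = 0.00794, the smallest that 5 against 5 allow. Day 3 was past the threshold without diclofenac replicate 2 (adjusted p = 0.00175) or 3 (adjusted p = 0.0333, limma) of day 1, which share its estimate of the spread. The day 3 difference of Il1r1 stayed at 1.97 in both fits. All genes called on day 3 numbered 178 and 25 there, against 26 with all arrays. For the mean of days 1 and 3 the gene rose by 1.43 (SE 0.26, adjusted p = 0.0291, limma), rank 43 of 12884 genes by p. This call held in 4 of 12 fits with 1 array left out, and without each of the 3 saline arrays of day 1, the 3 saline arrays of day 3 and diclofenac replicates 1 and 2 of day 3 no member was called. The adjusted p stayed between 0.0056 and 0.0873 over these fits, and the differences between 1.18 and 1.62. The call was also lost with all 22 arrays in one model and with the mean of both probe sets of the gene. It was lost too when livers of the same day and replicate number were treated as pairs.

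For the 3 days together the rise of Il1r1 of 1.42 held in each of the 22 fits with 1 array left out, with 1.25 to 1.55 and adjusted p from 0.000419 to 0.0251 (limma). Without replicate 3 of day 14 it was 1.27 (adjusted p = 0.000419), and day 14 alone was then called, with 0.96 (adjusted p = 0.037, limma), where 1.05% of all genes were. The exact permutation test within days gave p = 3.97e-05, or 5.95e-05 without that liver. With the mean of both probe sets of the gene, of which 1459777_at read 1.04 to 29.4 and was under the array median in every liver, the 3-day difference was 0.92 and was not called (adjusted p = 0.255). The effect of day 3 minus that of day 1 was 1.07 (SE 0.51, adjusted p = 0.881), and that of day 14 minus the early mean -0.03 (SE 0.51, adjusted p = 0.992, limma). No member passed for either difference between days, where 0% and 0.0225% of all genes did, and 0 members were under 0.05 before adjustment by limma.

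The order of the Il1r1 group means was diclofenac day 3 at 4022, diclofenac day 14 at 3522, saline day 14 at 1338, diclofenac day 1 at 1112, saline day 3 at 1030 and saline day 1 at 598 (geometric means). The single livers of neighbours in this order overlapped, except that diclofenac day 14 lay above saline day 14 and saline day 3 above saline day 1. Saline livers of day 3 were all above those of day 1, a difference between days that was not tested. The share of all genes with such a split between saline days was not counted. The 3′ to 5′ ratio (log2) averaged 0.59 in saline livers of day 1 and 0.78 in those of day 3.

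Il1rap, the accessory chain, was the only member with a negative difference on all 3 days, by the probe set that stood for it. On day 1 its signals were 13066, 15150 and 13816 with saline and 11645, 7931 and 11350 with diclofenac. On day 3 they were 12393, 13417 and 14124 against 11038, 11801 and 12374, where the lowest saline and the highest diclofenac liver were nearly equal. On day 14 they were 11767, 11466, 9714, 9170 and 9114 against 8462, 9070, 3090, 9958 and 11188, which overlapped. All diclofenac livers were below all saline livers on days 1 and 3.

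The log2 differences of Il1rap were -0.46 (SE 0.13), -0.18 (SE 0.13) and -0.41 (SE 0.30), with adjusted p of 0.263, 0.656 and 0.625 by limma. On day 14 the difference was -0.08 without replicate 3, which was 3.11-fold under the other 4 diclofenac livers. For the 3 days the mean was -0.35 (adjusted p = 0.251, limma), and the exact permutation test within days gave p = 0.00234, or 0.00573 without that liver. The probe sets of the gene disagreed. On day 1, 1421844_at had -0.41, 1439697_at -0.16 and 1421843_at 0.28. In the same order they had -0.53, 0.14 and 0.06 on day 3, and 0.13, 0.18 and -0.10 on day 14. With the mean of all probe sets of the gene the 3-day difference was 0.02. That mean includes 1442614_at, which read at most 63.6 and was under the array median in every liver. Its geometric mean was 12.9 with saline and 28.8 with diclofenac on day 1, and 23.1 and 15.4 on day 14. The mean without 1442614_at was not tested, so the 0.02 does not show that the other probe sets cancel. In saline livers Il1rap was 1.34-fold lower on day 14 than on days 1 and 3, with ranges of 9114 to 11767 and 12393 to 15150.

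**Figure D3:**
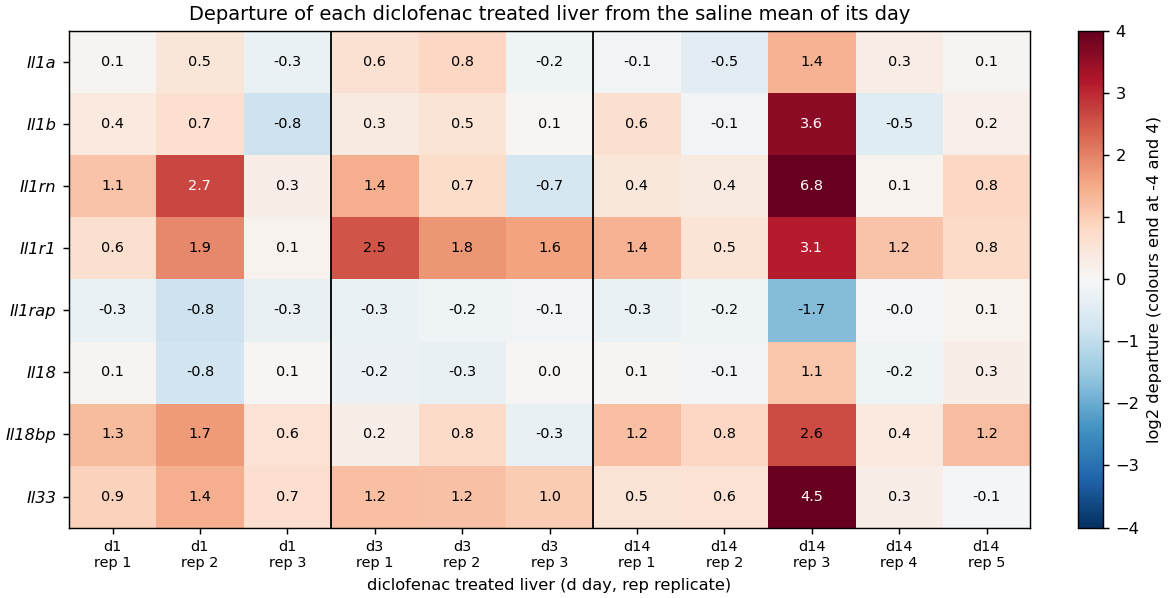
Log2 signal of each member in each of the 11 diclofenac livers minus the saline mean of its day, in colour and number. Replicate 2 of day 1 and replicate 3 of day 14 were high for Il1rn, Il1r1, Il18bp and Il33 and low for Il1rap, and Il1r1 was above 0 in all 11 livers.

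Livers differed within a group in several members at once. Replicate 3 of day 14 was above the geometric mean of its 4 companions by 84.3-fold for Il1rn, 17.5-fold for Il33, 11.6-fold for Il1b, 4.51-fold for Il1r1, 3.22-fold for Il18bp, 2.69-fold for Il1a and 2.11-fold for Il18. On day 1, replicate 2 of the diclofenac group had the highest Il1a, Il1b, Il1rn, Il1r1, Il18bp and Il33 and the lowest Il1rap and Il18 of its group. Without it the day 1 difference of Il1r1 was 0.39, that of Il1rn 0.70, that of Il33 0.80 and that of Il18bp 0.92, and the difference of Il1r1 for the 3 days was 1.25 (adjusted p = 0.0178, limma).

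The 9 neutrophil markers with a probe set (of 10 listed) summed to 24270 in replicate 3 of day 14 and to 21938 in replicate 2 of day 1. In the other diclofenac livers the sum was 742 to 3020. Saline livers had 787 to 1202 on day 1, 566 to 607 on day 3 and 391 to 624 on day 14. Such sums weigh the probe sets with the highest signals most. In replicate 3 of day 14, S100a8 gave 13001 and S100a9 7694 of the neutrophil sum. Elane there was 157 against 98.1 to 150 in its companions, and Cxcr2, at 49.3, was under the array median of 88.3. The Kupffer cell sum in replicate 3 of day 14 was 35309, against 8198 to 12254 in its companions. The monocyte sum was 8092 against 1807 to 2862. Within these lists Clec4f, at 1017, and Ccr2, at 31.8, lay inside the ranges of the companions, 921 to 1744 and 30.5 to 110. Stellate cell markers summed to 16509 against 6220 to 11567.5, and sinusoidal endothelial markers to 9124 against 5739 to 6204. Of the latter, Kdr was lower, at 148 against 243 to 330. The cholangiocyte sum was 2358 against 321 to 481, of which Sox9 alone gave 2099. Epcam, at 69.4, was below the 105 to 198 of its companions. In replicate 2 of day 1 the Kupffer cell sum of 36427, the stellate cell sum of 12304 and the cholangiocyte sum of 460 lay between those of its companions. The monocyte sum of 7380 was above their 4459 and 5965, and the sinusoidal endothelial sum of 11252 above their 9477 and 10345. No marker was at 0 in any array. The part of these cell types in the Il1b, Il1rn and Il33 signals of the 2 livers was not tested.

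Marker lists of the cell types of liver moved with treatment as follows for the mean of the 3 days. Of all 13340 genes, 1.68% were called there and 2469 were under 0.05 before adjustment (limma). Of 7 neutrophil genes tested, 2 rose, S100a8 by 3.57 and S100a9 by 3.27 on the log2 scale (adjusted p = 0.00819 and 0.00808, limma). Of 5 monocyte genes Chil3 rose, by 4.98, of 7 sinusoidal endothelial genes Oit3 fell, by 0.42, and of 7 stellate cell genes Reln fell, by 0.58. None was called of 8 Kupffer cell, 5 hepatocyte, 3 cholangiocyte, 5 T and NK cell and 3 B cell genes, where 6, 0, 1, 0 and 0 were under 0.05 before adjustment (limma). All 8 Kupffer cell genes had positive differences, with a median of 0.57, as had all 7 neutrophil genes, with 0.88, and all 5 monocyte genes, with 0.87, beside a median of -0.005 over all genes. Their part in the differences of Il1r1, Il33 and Il18bp was not tested.

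The members moved together to differing degrees over the 22 livers, on log2 signals minus the saline mean of the day. Spearman's rho was 0.76 for Il1rn with Il18bp, 0.74 for Il1r1 with Il33, 0.64 for Il1b with Il1rn, -0.67 for Il1rap with Il33 and -0.63 for Il1r1 with Il1rap. Without replicate 3 of day 14 the same values were 0.73, 0.70, 0.58, -0.62 and -0.58. The livers share treatment groups, so these values describe the pattern and carry no test.

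Among 13340 genes, those most like Il1r1 by the same measure were Lbp at 0.923, which codes for the lipopolysaccharide binding protein, Tnfrsf1a at 0.898, a receptor of tumour necrosis factor, and Lrg1 at 0.871, an acute phase glycoprotein. Those most like Il33 were Lgmn at 0.912, a lysosomal protease, Slc37a1 at 0.906, a sugar phosphate transporter, and Plac8 at 0.904, which is also on the monocyte list. Those most like Il1rn were Tnfaip8l2 at 0.820, which restrains innate immune signalling, Marchf1 at 0.820, a ubiquitin ligase of antigen presenting cells, and Ube2v2 at 0.809, a partner of ubiquitin conjugating enzymes. For Il1b they were Srrt at 0.799, which takes part in RNA processing, Med21 at 0.781, a subunit of the Mediator complex, and Clcn4 at 0.775, a chloride and proton exchanger.

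The rest of the interleukin-1 pathway was read from 4 lists of genes. For the mean of the 3 days, where 1.68% of all genes were called, 0 of 7 other family ligands and receptors passed (limma), with 1 under 0.05 before adjustment, as were 2469 of all 13340 genes. The largest differences were 0.91 for Il1r2, the decoy receptor (adjusted p = 0.208), and 0.28 for Il1f9, a cytokine of the IL-36 group (adjusted p = 0.705, limma). Of 12 genes of receptor signalling 0 passed and 6 were under 0.05 before adjustment, beside the same 2469 of 13340 genes. Irak3, an inhibitory kinase of the pathway, had 1.56 (adjusted p = 0.169), and Tab1, a partner of the kinase TAK1, had -0.79 (adjusted p = 0.263, limma). For the mean of days 1 and 3, Myd88, the adaptor of the receptor, rose by 0.50 (SE 0.10, adjusted p = 0.037, limma), the 1 of these 12 called there.

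Of 16 genes of inflammasomes and cytokine processing, 1 was called and 0 rose. Txnip, which binds thioredoxin and is also known as a partner of NLRP3, fell by 0.59 (SE 0.13, adjusted p = 0.024, limma). Casp1, the protease that cuts interleukin-1β and interleukin-18, had 0.15 (adjusted p = 0.579), Nlrp3 -0.20 (adjusted p = 0.786) and Pycard, the adaptor of inflammasomes, 0.61 (adjusted p = 0.25, limma). These 3 were picked after their values were seen. Elane is on this list and on that of the neutrophil markers. Median differences of the 3 lists were 0.19, 0.03 and 0.15 beside -0.005 over all genes.

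Genes known to answer interleukin-1 in liver and other tissues stood higher. For the mean of the 3 days, 10 of the 16 tested rose and 0 fell, with a list median of 1.73. The leading ones were Saa2 with 4.19 and Lcn2 with 4.19, then Orm2 with 3.60 and Cxcl1 with 3.20 (adjusted p = 0.000451, 5.81e-05, 0.000742 and 0.0136, limma). Saa2 and Orm2 code for acute phase proteins, Lcn2 for an iron-siderophore binding protein and Cxcl1 for a neutrophil chemoattractant. Saa1 and Saa2 are near identical, and their probe sets may share signal. The list was chosen with earlier results of these data known, so the count of 10 describes it and is no independent test.

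On day 3, 4 of the 16 rose, Saa2 by 4.85, Lcn2 by 4.21, Orm2 by 3.22 and Saa1 by 2.61, where 0.202% of all genes were called. For the mean of days 1 and 3, 6 of 16 rose, where 0.675% of all genes were called. On day 14, 0 of 15 were called (limma), 12 were under 0.05 before adjustment, as were 1287 of the 11884 genes tested, and the list median was 2.11, beside -0.014 over all genes. These genes also answer interleukin-6 and tumour necrosis factor, and which signal reached them was not measured.

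**Figure D4:**
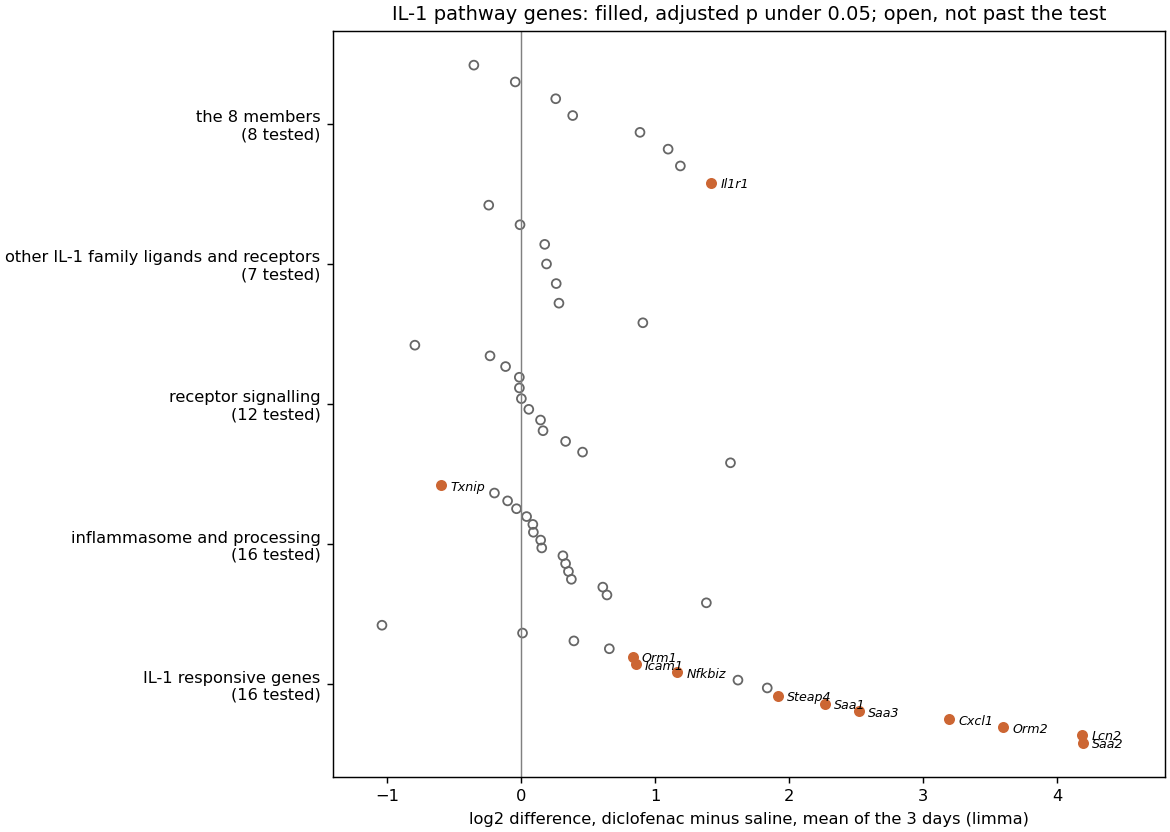
Log2 difference of diclofenac minus saline as the mean of the 3 days (limma) for the 8 members and the 4 lists of pathway genes, 1 point per gene tested, filled where the adjusted p was under 0.05. Of the members Il1r1 is filled at 1.42, and of the responsive genes 10 of 16 are, up to 4.19 for Saa2 and Lcn2.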

How the data were processed

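Liver RNA of 22 mice was measured on Affymetrix arrays, 1 array per liver. The deposited values are linear signals, which the authors computed with MAS 5.0 from probe intensities, and each array had a trimmed mean of 500. The authors' methods add a global median normalisation, and the deposited signal values showed different array medians. Probe sets were named through the platform annotation, in which 34958 of 45101 had 1 gene, 932 several and 9211 none. Positions and upstream sequences are from RefSeq GRCm38.p6.

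Log2 signals were fitted with limma 3.58.1 in R 4.3.3 (lmFit, eBayes with trend), days 1 and 3 together, day 14 alone and all 22 arrays for the mean of the 3 days, with Benjamini-Hochberg adjustment over all genes tested at 0.05. Exact permutation tests (two-sided) used Python 3.11.15. The fits were tested on simulated data. Alternatives covered filter, normalisation, offset, probe sets, array weights, replicate block, samples in the fit, thresholds and the methods' t-test. All 8 members were named, and 3 most alike genes each for Il1b, Il1rn, Il1r1 and Il33. For pathway and marker genes the rule was at most 4 called genes per list and comparison, or the 2 with the largest difference where none was called. It was not carried through everywhere. Marker lists with none called, and the 6 responsive genes called for days 1 and 3, were given as counts only. Outside this rule, Casp1, Nlrp3 and Pycard, and the markers described in single livers, were named after their values were seen. The members, lists and tests were chosen with earlier results of these data known.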

Additional observations from a re-analysis of the deposited data

Results flagged for a closer look

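In the groups of 5 livers on day 14, a liver was marked when its gap to the nearest other liver, as a share of the range of log2 signals of the group, was over 0.71. Of 16 groups looked at, 5 were marked. Chance marks about 1 in 20 groups, but these groups are 8 genes in the same 10 livers and 4 of the 5 marks are 1 liver, so the count cannot be read against that share. Replicate 3 of the diclofenac group was marked as the highest for Il1b (0.729), Il1rn (0.898) and Il33 (0.856) and as the lowest for Il1rap (0.783). The fifth was Il18 in saline livers, where replicate 4 was the lowest (0.841), at 578 against 686 to 708 in the other 4.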

How the results depend on the processing

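The count of members called on day 3 was 0, and 1 with arrays centred on the median, with the array median added before log2, with array weights and with each day on its own arrays, each time Il1r1. All genes called there numbered 26, and 22, 28, 156 and 145 in these alternatives. For days 1 and 3 the count was 1, and 0 with the mean of all probe sets, with the replicate block and with all 22 arrays in one model, where 87 genes in all became 63, 24 and 32. For the 3 days it was 1, and 0 with the mean of all probe sets and 2 with array weights, where Il33 was added, and 224 genes in all became 164 and 484. At an unadjusted p under 0.01 and at least 1.5-fold, limma called 1 member on day 1, 2 on day 3 and 1 on day 14, and the methods' t-test at its own threshold 1, 2 and 2, beside 248, 258 and 205 genes in all for limma and 188, 321 and 284 for the t-test. With 1 array left out the counts ranged from 0 to 1 on day 3, from 0 to 1 on day 14, from 0 to 2 for days 1 and 3 and from 1 to 3 for the 3 days. On day 3 it was 1 without replicate 2 or 3 of the diclofenac group of day 1, beside 178 and 25 genes in all. For days 1 and 3 it was 2 without replicate 3 of that group, beside 326 genes in all. On day 14 it was 1 without diclofenac replicate 3 of day 14, beside 123 genes in all, against 0 with all arrays. For the 3 days it was 3 without that liver and 2 without replicate 4, beside 536 and 301 genes in all. Il1rap turned positive with the mean of all probe sets, to 0.082 on day 1, 0.15 on day 3, 0.11 for both and 0.024 for the 3 days. That mean includes 1442614_at, which was under the array median in every liver. With array weights the day 1 values of Il1a and Il1b were -0.013 and -0.051. With 1 array left out the day 1 values ranged from -0.086 to 0.30 for Il1a, from -0.22 to 0.52 for Il1b and from -0.35 to 0.081 for Il18, that of Il18bp on day 3 from -0.038 to 0.50, that of Il1a on day 14 from -0.044 to 0.42 and that of Il18 for the 3 days from -0.11 to 0.050. The cause of these changes was not tested. Whether replicate numbers pair the livers was not settled. Of 11 pairs 1 had a correlation over 0.1, and 5 of 11 diclofenac arrays were most like the saline array of their own number. These counts were not compared with chance. Il33 has no day 14 value with the filter at the 60th percentile. Signals near the array median, as for Il1a and Il33, limit what can be seen.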
